A study of Mus musculus with 6 samples.

Results

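The 10 genes described here encode the collagens, laminins and linker proteins of the basement membrane. They are Col4a1, Col4a2, Col15a1, Col18a1, Lama2, Lama4, Lamb1, Lamc1, Nid1 and Hspg2, and all 10 were found by symbol among the 38293 genes of the count table. The 6 RNA libraries, 3 Zeb2 fl/fl and 3 Zeb2 cKO, came from injured hearts of adult male mice on a backcrossed C57BL/6J strain, 14 days after permanent occlusion of the left anterior descending coronary artery (MI). Both groups carry the floxed Zeb2 allele according to the methods, and the labels call the first group WT. Zeb2 cKO mice also carry Cre recombinase under the Myh6 promoter, which is active in cardiomyocytes, so that the deletion is directed to that cell type alone. The labels place the tissue in the border region of the infarct, whereas the methods name the remote zone. No sham-operated hearts are among these libraries. The question for these genes is whether their RNA differs between the genotypes in injured heart, and whether they follow Col1a1, a chain of the fibrillar collagen of scar tissue.

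A basement membrane is a thin sheet of matrix that surrounds each cardiomyocyte and lies under the endothelium of each vessel. Laminins, each made of an alpha, a beta and a gamma chain, assemble on the cell surface through integrins and dystroglycan. A network of collagen IV gives the sheet its strength, and its chains among the members are those of Col4a1 and Col4a2. RNA of Col4a3, Col4a4, Col4a5 and Col4a6 was also found in every library, Col4a5 at 55.3 to 112 CPM. Nidogen and perlecan link the laminin and collagen IV networks. Collagens XV and XVIII lie at the border with the surrounding fibrillar matrix. In the heart, laminin alpha 2 is the chain of the cardiomyocyte basement membrane, and laminin alpha 4 is prominent in vessels.

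Counts outside the 37 mitochondrially encoded genes were between 14301225 and 19024394 per library, and total counts between 37288174 and 51136331. Levels are given as CPM, which are counts scaled by library size after TMM normalization. Zeb2 itself measured 61.3, 116.05 and 71.9 CPM across the Zeb2 fl/fl replicates, against 59.6, 72.6 and 66.5 CPM across the Zeb2 cKO replicates. The groups overlapped (log2 fold change -0.33, unadjusted p = 0.228, and -0.0058 without Zeb2 fl/fl replicate 2), so gene-level counts of Zeb2 give no check of the genotype labels. One library stood apart from the rest. Zeb2 fl/fl replicate 2 was the highest of the 6 libraries in 35.2% and the lowest in 34.6% of the 14746 genes that passed the filter on low counts. Its summed level of 10 fibroblast markers was 3685 CPM, against 1173 to 1580 CPM in the other libraries. Its 10 macrophage markers summed to 502 CPM, against 147 to 203 CPM. Its 10 cardiomyocyte markers summed to 35446 CPM, against 57135 to 69433 CPM, and its 10 endothelial markers to 489 CPM, against 588 to 709 CPM. Results are therefore given with and without Zeb2 fl/fl replicate 2. All 40 of these markers had counts in every library, so each of these cell types of the heart was represented. Of the less common cell types, the adipocyte list held Fabp4 at 125 to 215 CPM, while Adipoq, Plin1, Cidec and Cfd were at or under 1.66 CPM in every library and Lep was at 0 in some. Mesothelial markers summed to 4.48 to 9.02 CPM.

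Col4a1 and Col4a2 lie head to head on chromosome 8 of GRCm38, Col4a1 on the minus strand at chr8:11198423-11312826 and Col4a2 on the plus strand at chr8:11312805-11449287. Their annotated 5′ ends overlap by 22 bases (chr8:11312805-11312826), which makes them a gene pair with a shared start region. The overlap, as RefSeq gives it for GRCm38.p6 and read 5′ to 3′ along each gene, is shown because the pair also moved together in these libraries.
Col4a2 strand: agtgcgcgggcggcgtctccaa
Col4a1 strand: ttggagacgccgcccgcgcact

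Upstream sequence is shown for Nid1 and Hspg2 as well, the linker genes, whose levels went different ways in Zeb2 fl/fl replicate 2. The stretches run to the base before the first annotated start, chr13:13437352-13437550 for Nid1 and chr4:137468553-137468768 for Hspg2, both on the plus strand of GRCm38.p6. Capitals mark CACCT or its reverse complement AGGTG, the core of the element that ZEB2 is known to bind.
Nid1: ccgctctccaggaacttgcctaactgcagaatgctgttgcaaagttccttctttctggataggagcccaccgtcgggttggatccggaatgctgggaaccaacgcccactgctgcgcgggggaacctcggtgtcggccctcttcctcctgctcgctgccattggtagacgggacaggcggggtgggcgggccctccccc
Hspg2: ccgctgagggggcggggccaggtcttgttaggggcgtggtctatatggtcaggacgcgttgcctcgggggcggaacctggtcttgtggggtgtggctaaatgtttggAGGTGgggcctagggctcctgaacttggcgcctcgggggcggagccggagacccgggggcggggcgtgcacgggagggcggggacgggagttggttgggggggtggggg

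The Hspg2 stretch holds 1 match, 143 bases before the RefSeq start. The Nid1 stretch as printed holds none, but the RefSeq window of Nid1, which runs on past it, holds 1 match, the same number as that of Hspg2. RefSeq windows from 250 bases before to 50 bases after the start were matched for 8 of the 10 members, with 9 windows in all, and Lama4 and Lamc1 were not matched. CACCT or AGGTG occurred in a window of 5 of these 8 members (Col4a2, Col18a1, Lamb1, Nid1 and Hspg2), and in 51.9% of the 32851 windows of all genes. The longer form CACCTG, or CAGGTG on the other strand, which contains the shorter one, occurred in 0 of the 8 members and in 20.2% of all windows. These are matches of letters within short windows, and binding of ZEB2 was not measured here.

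Collagen IV RNA was the most abundant of the family in both genotypes. Per kilobase of exon, Col4a1 averaged 91.3 ± 15.9 CPM with the Zeb2 fl/fl and 87.02 ± 26.1 CPM with the Zeb2 cKO genotype, and Col4a2 averaged 53.95 ± 9.90 and 49.1 ± 14.9 CPM (SD, n = 3 each). Averaged over the 6 libraries, Hspg2 followed with 28.6 CPM per kilobase, then Nid1 with 26.7, Lamc1 with 23.2 and Col15a1 with 20.7, and among these 4 each neighbour lay within the larger of the SDs. Lama2 was at 12.2, Lama4 at 9.46 and Lamb1 at 8.45 CPM per kilobase, and Lama4 and Lamb1 again differed by less than the larger SD. Col18a1, at 2.41 CPM per kilobase, was the lowest. In all 6 libraries Col4a1 was above Col4a2, Col4a2 above Hspg2, Col15a1 above Lama2, Lama2 above Lama4, Lama4 above Lamb1, and Lamb1 above Col18a1.

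Across the whole table, 0 of the 14746 tested genes (0%) had an adjusted p under 0.05 in edgeR's quasi-likelihood test, beside 280 (1.9%) with an unadjusted p under 0.05, and DESeq2's Wald test called 1 of 24089 genes (0.00415%), Slc46a2, which is no member. None of the 10 members was among the 280, and DESeq2 gave 0 members and 1.78% of genes an unadjusted p under 0.05. Unadjusted p-values of the members ran from 0.207 for Nid1 to 0.838 for Lama4, and the adjusted values were between 0.957 and 0.984. In 0 of the 10 members did all libraries of either genotype lie above all those of the other genotype, against 6.36% of all tested genes (2.97% lower and 3.39% higher in Zeb2 cKO). A log2 fold change under -0.2, the limit used in the study, was found in 4 members (Nid1, Lamc1, Lama2 and Col15a1), where 22.6% of all tested genes were under it. None of the members was over 0.2, against 15.9% of all genes. In DESeq2 the same 4 members were under -0.2, against 32.1% of genes, and 0 were over 0.2, against 27.1%. The median log2 fold change was -0.17 over the members and -0.0069 over all genes tested. In bulk tissue, fewer cells of a type and less RNA per cell cannot be told apart.

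**Figure D1:**
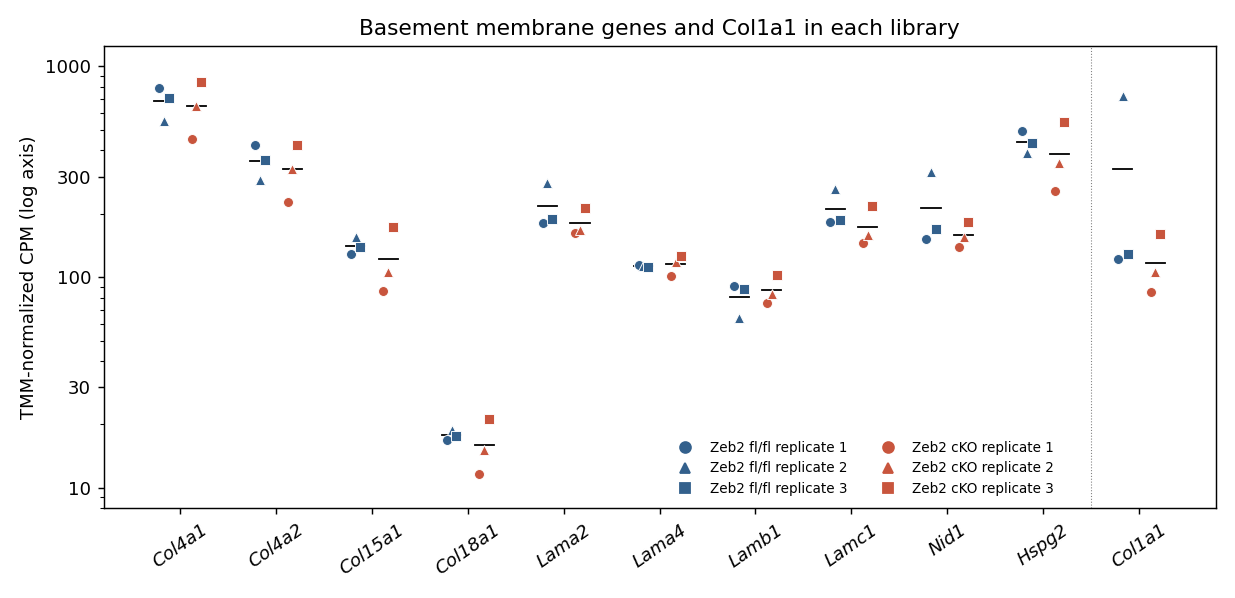
Level of each basement membrane gene and of Col1a1 in the 6 libraries, as TMM-normalized CPM on a log axis. Points are libraries (blue Zeb2 fl/fl, red Zeb2 cKO, the symbol gives the replicate) and black bars are the means of 3. The members span at most 2.27-fold from the lowest to the highest library, and Col1a1 spans 8.49-fold through the triangle of Zeb2 fl/fl replicate 2.

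Col4a1, which encodes the alpha 1 chain of collagen IV, measured 786, 552 and 705 CPM across replicates 1, 2 and 3 of Zeb2 fl/fl, against 454, 652 and 843 CPM across those of Zeb2 cKO. The lowest and the highest library were both Zeb2 cKO, so the Zeb2 fl/fl values lay within the range of the Zeb2 cKO values. The log2 fold change of Col4a1 was -0.069 (standard error 0.27, 95% interval -0.72 to 0.58). Col4a2, the alpha 2 chain, measured 421, 290 and 360 CPM across the Zeb2 fl/fl replicates, against 227, 326 and 423 CPM across the Zeb2 cKO replicates. Its libraries took the same order as those of Col4a1 within each genotype, and its log2 fold change was -0.13 (standard error 0.27, 95% interval -0.77 to 0.50). Leaving out Zeb2 cKO replicate 1 turned both to values above 0, 0.13 for Col4a1 and 0.069 for Col4a2. Leaving out Zeb2 fl/fl replicate 1 gave 0.047 and 0.0018, and leaving out Zeb2 fl/fl replicate 2 gave -0.20 and -0.26.

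Collagen XV and collagen XVIII are related nonfibrillar chains, and a fragment of collagen XVIII, endostatin, is known as an inhibitor of angiogenesis. Col15a1 (chr4:47208161-47313167) measured 128, 156 and 139 CPM across the Zeb2 fl/fl replicates, against 85.9, 106 and 173 CPM across the Zeb2 cKO replicates. Replicates 1 and 2 of Zeb2 cKO lay below and replicate 3 above all Zeb2 fl/fl hearts, and the log2 fold change of Col15a1 was -0.21 (standard error 0.27). Col18a1 (chr10:77052178-77166548, minus strand) measured 16.9, 18.9 and 17.7 CPM across the Zeb2 fl/fl replicates, against 11.6, 15.2 and 21.3 CPM across the Zeb2 cKO replicates. The log2 fold change came to -0.16 (standard error 0.22). Within Zeb2 fl/fl the SD of Col18a1 was 0.995 CPM, and within Zeb2 cKO it was 4.91 CPM.

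Lama2 (chr10:26980036-27619758, minus strand), whose loss is known to cause congenital muscular dystrophy, measured 181, 281 and 189 CPM across the Zeb2 fl/fl replicates, against 162, 167 and 214 CPM across the Zeb2 cKO replicates. Zeb2 fl/fl replicate 2 was the highest library, and the log2 fold change of -0.26 (standard error 0.22) became -0.030 without it. Lama4 (chr10:38965515-39110188) was the steadiest member. It measured 114, 113 and 112 CPM across the Zeb2 fl/fl replicates, against 101, 118 and 126 CPM across the Zeb2 cKO replicates, a 1.25-fold range over all 6 libraries. Its log2 fold change was 0.028, with a 95% interval from -0.29 to 0.35, the narrowest among the members.

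The beta and gamma chains that complete these trimers did not take the same course in Zeb2 fl/fl replicate 2. Lamb1 (chr12:31265234-31329644), the beta 1 chain, measured 90.8, 63.8 and 87.7 CPM across the Zeb2 fl/fl replicates, against 75.6, 83.2 and 102 CPM across the Zeb2 cKO replicates, and Zeb2 fl/fl replicate 2 was the lowest library. Lamc1 (chr1:153218922-153332786, minus strand), the gamma 1 chain, measured 182, 261 and 187 CPM across the Zeb2 fl/fl replicates, against 145, 159 and 217 CPM across the Zeb2 cKO replicates, and here the same library was the highest. The log2 fold changes were 0.11 for Lamb1 (standard error 0.19) and -0.27 for Lamc1 (standard error 0.23). With Zeb2 fl/fl replicate 2 left out they were -0.036 and -0.084.

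Nid1 (chr13:13437551-13512269), which encodes nidogen 1, measured 152, 315 and 169 CPM across the Zeb2 fl/fl replicates, against 139, 156 and 183 CPM across the Zeb2 cKO replicates. It had the largest difference of the members, with -0.42 on the log2 scale (standard error 0.30, 95% interval -1.12 to 0.29), and this was -0.011 when Zeb2 fl/fl replicate 2 was left out. Other genes share 6.07% of the longest Nid1 transcript and 1.64% of that of Lama2, in stretches of at least 75 bases at 95% identity or more, so counts of these genes are less certain, and no such stretch was found in the other 8 members. Hspg2 (chr4:137468769-137570630), which encodes perlecan, measured 491, 387 and 432 CPM across the Zeb2 fl/fl replicates, against 255, 349 and 543 CPM across the Zeb2 cKO replicates. Both the lowest and the highest library were Zeb2 cKO. The log2 fold change of Hspg2 was -0.19 (standard error 0.29), and it was -0.27 without Zeb2 fl/fl replicate 2 and 0.029 without Zeb2 cKO replicate 1.

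Without Zeb2 fl/fl replicate 2, 2 members, Col4a2 and Hspg2, had a log2 fold change under -0.2, against 11.7% of all tested genes, and 0 were over 0.2, against 14.2%. The member median was then -0.096 and that of all genes 0.0025. In that comparison edgeR gave 0 members an adjusted or an unadjusted p under 0.05. The unadjusted p was under 0.05 in 393 genes (2.63%), the adjusted p in 0. The 4 members under -0.2 with all libraries and these 2 had 0 genes in common.

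**Figure D2:**
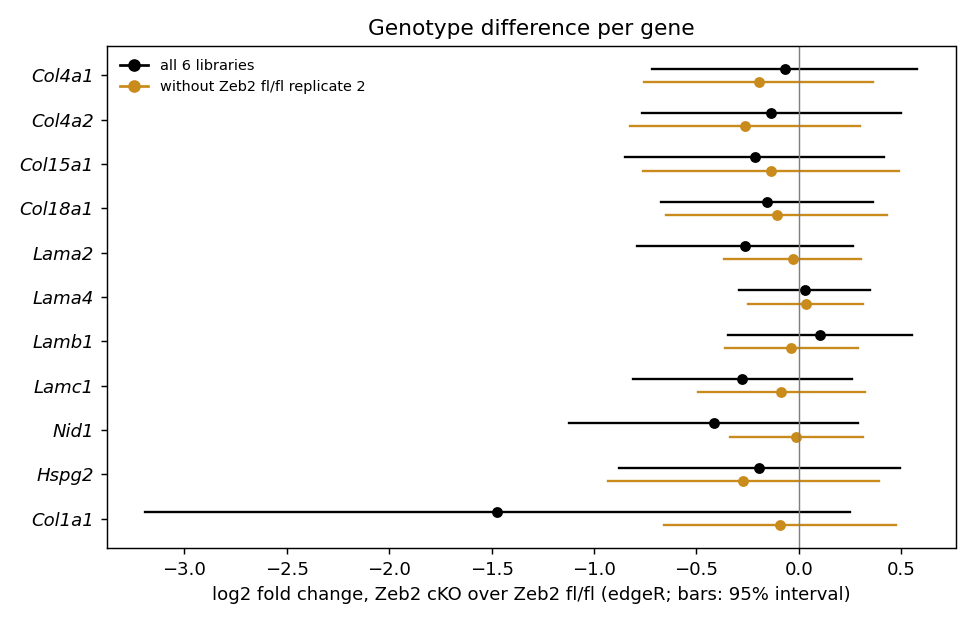
Log2 fold change of Zeb2 cKO over Zeb2 fl/fl for each member and for Col1a1, with all 6 libraries (black) and without Zeb2 fl/fl replicate 2 (ochre); bars are 95% intervals. Every interval includes 0, and the interval of Col1a1 with all libraries, from -3.19 to 0.25, is the widest shown.

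The Zeb2 cKO libraries differed among themselves in an order that the members and the fibrillar collagens shared. Replicate 1 was the lowest and replicate 3 the highest of the 3 Zeb2 cKO libraries in all 10 members, an arrangement found in 20.8% of all tested genes and in all 7 fibrillar collagens, whose summed level was 1059, 1331 and 1666 CPM in replicates 1, 2 and 3. Replicate 3 was the highest of all 6 libraries in 7 members, against 10% of genes, and replicate 1 the lowest of all 6 in 9 members, against 16.9%. The step from replicate 1 to replicate 3 was 2.13-fold for Hspg2, 2.02-fold for Col15a1 and between 1.84- and 1.87-fold for Col4a1, Col4a2 and Col18a1. It was 1.25-fold for Lama4, 1.32-fold for Lama2 and Nid1, and 1.35-fold for Lamb1, and Lamc1 lay between these and Col18a1. Endothelial markers summed to 588 CPM in replicate 1 and 709 CPM in replicate 3, pericyte and smooth muscle markers to 963 and 1054 CPM, and cardiomyocyte markers to 69097 and 57135 CPM. Fibroblast markers summed to 1580 and 1497 CPM, but the genes of that list were divided. Postn, a matrix protein of activated fibroblasts, was at 138 and 418 CPM, and Mfap5, Pcolce, Tcf21 and Fap were also higher in replicate 3. Gsn was at 674 and 410 CPM, and Dcn, Lum, Dpt and Pdgfra were also lower in replicate 3. The part of these cell types in the pattern was not tested. Left out, replicate 3 gave 8 members under -0.2, against 26.9% of all genes, 0 over 0.2, against 20.6%, and a member median of -0.41. Col15a1 (log2 fold change -0.56, unadjusted p = 0.0252) and Col18a1 (-0.42, unadjusted p = 0.0478) were then under 0.05 before adjustment, as were 2.49% of all genes, and both had an adjusted p of 0.915 in edgeR. With replicate 1 left out, 1 member, Nid1, was under -0.2, against 22.1% of all genes, 0 were over 0.2, against 15.4%, and the median was 0.031. In that comparison edgeR gave 0 members and 0.813% of genes an unadjusted p under 0.05.

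**Figure D3:**
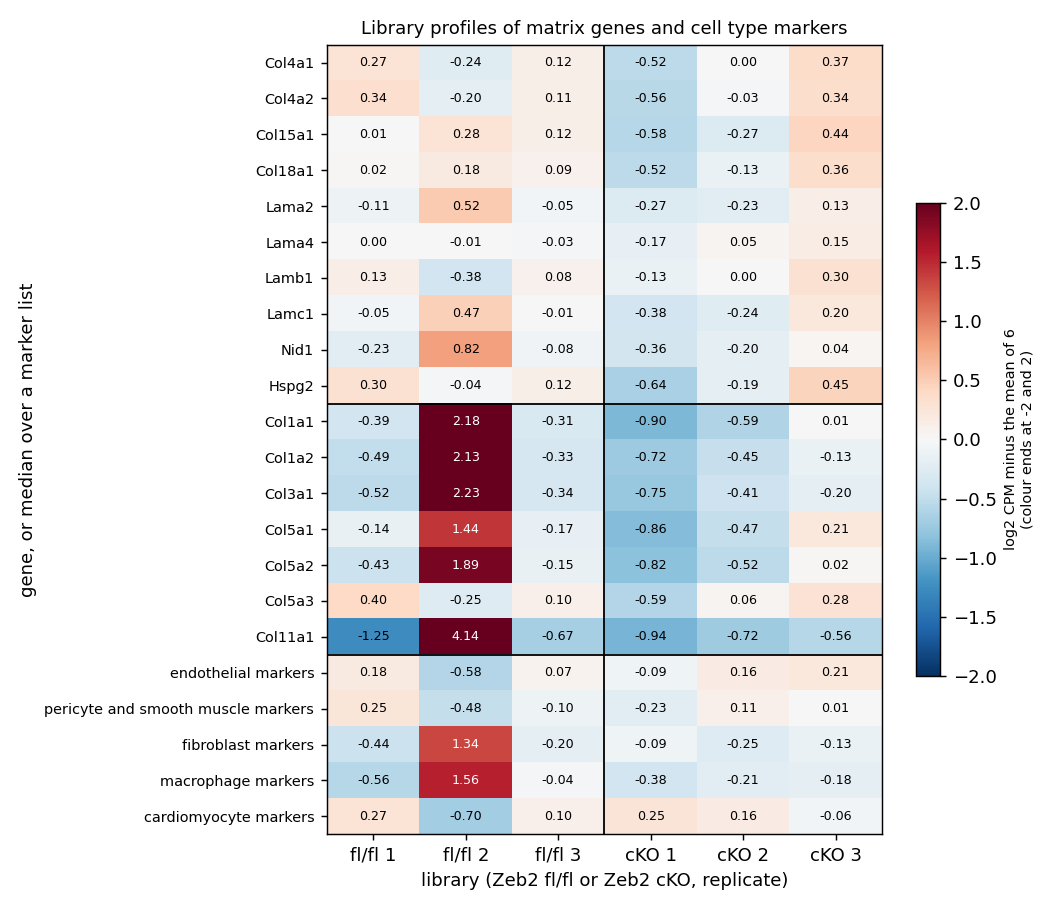
Log2 CPM of each gene minus its mean over the 6 libraries, for the members (top), fibrillar collagens (middle) and the medians of 5 marker lists (bottom); columns are libraries. In Zeb2 fl/fl replicate 2 the members lie between -0.38 and 0.82, the fibrillar collagens other than Col5a3 between 1.44 and 4.14, and the fibroblast marker median at 1.34.

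Col1a1 (chr11:94936224-94953042) measured 122, 725 and 129 CPM across the Zeb2 fl/fl replicates, against 85.4, 106 and 161 CPM across the Zeb2 cKO replicates. A single library, Zeb2 fl/fl replicate 2, was at 5.79 times the mean of the other Zeb2 fl/fl hearts, while in the same library the members were between 0.715-fold (Lamb1) and 1.96-fold (Nid1) of that mean. The log2 fold change of Col1a1 was -1.47 (standard error 0.73, adjusted p = 0.957 in edgeR) and -0.091 without that library. Among the 7 fibrillar collagens listed, 6 had a log2 fold change under -0.2, against 22.6% of all tested genes, and the median was -1.38 with all libraries and -0.091 without Zeb2 fl/fl replicate 2. Col11a1, a minor fibrillar chain, had the smallest unadjusted p (0.0459, adjusted p = 0.957), with 48.6 CPM in that library and 1.12 to 1.82 CPM in the other 5. Col3a1, the chain of type III collagen, had a log2 fold change of -1.48, and of -0.0082 without the library.

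To set the members against Col1a1 directly, the ratio of their counts was taken within each library, where scaling between libraries cancels. Per kilobase of exon, Col4a1 RNA was 5.68, 0.670 and 4.82 times that of Col1a1 across the Zeb2 fl/fl replicates, against 4.67, 5.43 and 4.61 times across the Zeb2 cKO replicates. Nid1 was at 1.18, 0.411 and 1.24 times Col1a1 in Zeb2 fl/fl and at 1.53, 1.39 and 1.08 times in Zeb2 cKO hearts. Zeb2 fl/fl replicate 2 had the lowest ratio for all 10 members, and the other Zeb2 fl/fl hearts lay near the Zeb2 cKO hearts. The mean log2 ratio to Col1a1 was higher in Zeb2 cKO hearts for each member, by 0.64 for Nid1 to 1.10 for Lamb1. Exact permutation tests on these 10 ratios gave two-sided p-values from 0.3 to 0.9, where 3 against 3 cannot go below 0.1. In 0 of the 10 did the genotypes separate, against 2.86% of all genes whose ratio to Col1a1 was higher and 0.0543% whose ratio was lower without overlap. Summed fibroblast markers were highest and summed cardiomyocyte and endothelial markers lowest in Zeb2 fl/fl replicate 2, as given above. Single markers did not all follow, since Emcn, Vwf and Tek of the endothelial list were highest there. Cldn5 of that list and Myl2 of the cardiomyocyte list were lower in a Zeb2 cKO library. The part of these cell types in the ratios was not tested. When Zeb2 fl/fl replicate 2 was left out, the difference ran from -0.19 for Hspg2 to 0.17 for Lama4, below 0 in 5 members and above 0 in 5 (two-sided exact permutation p from 0.2 to 0.8). When Zeb2 cKO replicate 3 was left out, the ratio was higher without overlap in Lama2, Lama4, Lamb1, Lamc1 and Nid1, which is 5 of 10 where 69.1% of all genes were.

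**Figure D4:**
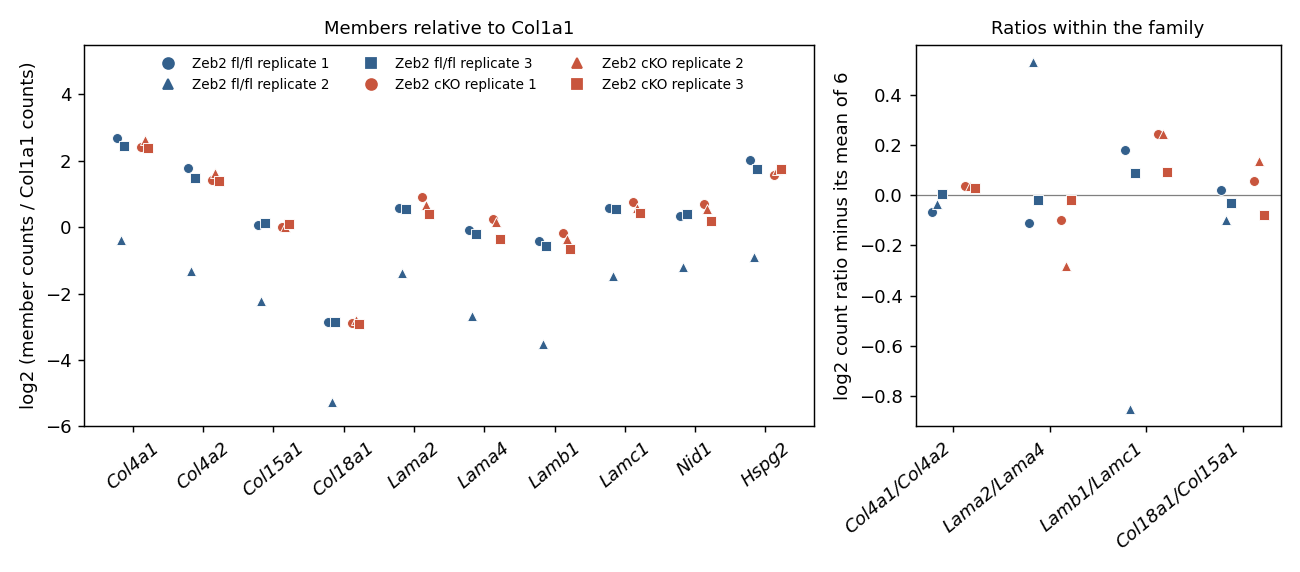
Left, log2 ratio of each member's counts to those of Col1a1 in each library; the triangle of Zeb2 fl/fl replicate 2 is the lowest point for all 10 members. Right, log2 count ratios of 4 pairs within the family, each minus its mean over the 6 libraries, where the Zeb2 cKO points lie above the Zeb2 fl/fl points for Col4a1/Col4a2 alone.

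Ratios between members were examined for 4 pairs. Col4a1 to Col4a2 hardly varied. Per kilobase the ratio was 1.65, 1.69 and 1.74 in Zeb2 fl/fl and 1.77 in each of the 3 Zeb2 cKO hearts, with each unrounded Zeb2 cKO value above each Zeb2 fl/fl value. The log2 difference was 0.065, beside an SD of 0.035 among Zeb2 fl/fl and 0.0039 among Zeb2 cKO hearts. It stayed between 0.049 and 0.084 with any 1 library left out. The exact permutation test gave a two-sided p = 0.1, the smallest possible, which is not under 0.05. The share of other gene pairs whose ratio separates the genotypes was not counted, so how unusual this separation is was not tested. Counting error of a single log2 ratio was at most 0.017. The genes overlap at their 5′ ends on opposite strands, and whether counting used the strand is not stated in the sources used here.

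For Lama2 to Lama4 the ratio per kilobase was 1.17, 1.83 and 1.25 in Zeb2 fl/fl and 1.18, 1.04 and 1.25 in Zeb2 cKO hearts (log2 difference -0.27, two-sided exact permutation p = 0.5). Lama2 was highest in Zeb2 fl/fl replicate 2, where summed cardiomyocyte markers were lowest. Which cells made either RNA was not tested. Lamb1 to Lamc1 was 0.417, 0.204 and 0.392 in Zeb2 fl/fl and 0.436, 0.436 and 0.392 in Zeb2 cKO hearts (log2 difference 0.39, p = 0.2 by the same exact test). Lamb2 was not part of this ratio. In both pairs Zeb2 fl/fl replicate 2 lay farthest from the others. Without it the log2 differences were -0.069 and 0.059. Col18a1 to Col15a1 stayed between 0.110 and 0.129 per kilobase in all 6 libraries, although each gene alone ranged over 1.84-fold and 2.02-fold, and its log2 difference between the genotypes was 0.075 (exact permutation test, two-sided p = 0.4).

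Among 25 other chains and components of basement membranes, 24 were tested, 5 were under -0.2 and 6 over 0.2, where 22.6% and 15.9% of all tested genes were, and 0 had an adjusted or unadjusted p under 0.05 in edgeR's test. Their median log2 fold change was -0.0012, and 0.050 without Zeb2 fl/fl replicate 2. Smoc1, a secreted calcium-binding protein, had the smallest p, with 2.07, 10.98 and 3.41 CPM across the Zeb2 fl/fl replicates, against 2.26, 2.03 and 2.79 CPM across the Zeb2 cKO replicates (log2 fold change -1.22, and -0.21 without Zeb2 fl/fl replicate 2). Lamc3, a further laminin gamma chain at low level, had a log2 fold change of 0.92, with overlapping groups. It was 0.58 without Zeb2 fl/fl replicate 2.

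Of 16 receptor genes, which hold integrin and dystroglycan complex subunits, 4 were under -0.2 and 3 over 0.2, beside the same 22.6% and 15.9% of all genes, with a median of 0.087 (-0.047 without Zeb2 fl/fl replicate 2) and 0 genes at an unadjusted p under 0.05. Itga2, a collagen-binding integrin subunit at only 0.66 to 2.28 CPM, had a log2 fold change of -0.85, and -0.24 without Zeb2 fl/fl replicate 2. Sgca, a sarcoglycan of striated muscle, was at 0.36 and 0.11. Itgb1, the shared beta 1 integrin subunit, was at -0.24 and -0.10. With all libraries the groups overlapped for Itga2, Sgca and Itgb1. Without Zeb2 fl/fl replicate 2, 2 of the 16 genes were under -0.2, against 11.7% of all tested genes, and 1 was over 0.2, against 14.2%.

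Of 12 genes for collagen processing and crosslinking, 6 were under -0.2, against 22.6% of all tested genes, and 0 over 0.2, against 15.9%, with a median of -0.18, and 0 had an unadjusted p under 0.05. P4ha1, a prolyl hydroxylase subunit, was at -0.26, Plod2, a lysyl hydroxylase, at -0.58, and Plod3, of the same enzyme family, at -0.30 in log2 fold change. Without Zeb2 fl/fl replicate 2 the median was -0.045 and 0 of the 12 were under -0.2, against 11.7% of all tested genes.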

How the data were processed

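RNA-seq libraries of mouse hearts, 3 Zeb2 fl/fl (WT in the labels) and 3 Zeb2 cKO, were compared 14 days after MI, with groups and replicate numbers taken from the sample titles. The authors deposited raw counts per gene. Per the methods, strand-specific single-end reads of ribosome-depleted RNA were aligned and counted on a Gencode annotation of GRCm38 with the STAR workflow. The STAR version and the handling of strand and of reads with several positions are not given in the sources used here. Each of the 6 columns of counts was matched to 1 sample.

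Symbols, coordinates and exon lengths (union of exons) were taken from Gencode M21 of the same build. Counts were TMM-normalized in edgeR 4.0.16 (R 4.3.3), filtered with filterByExpr and tested with glmQLFit and glmQLFTest, with Benjamini-Hochberg adjustment over all tested genes. Fold changes used a prior count of 0.125. Standard errors were the size of the unshrunk log2 coefficient over the square root of the F statistic, and 95% intervals used the residual plus prior degrees of freedom of the fit. Log2 CPM used a prior count of 2, and log2 ratios of counts had 0.5 added to each count. Single values were compared by exact permutation tests over libraries. DESeq2 1.42.0 was an alternative. Shared stretches of at least 75 bases were searched with BLAST 2.17.0. The edgeR fit was tested on simulated data. The lowest count of any member in a library was 580, so precision is limited mainly by the spread between libraries. Nothing in the labels says outright that each library is a separate animal, and p-values measure only the spread between these libraries.

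The members and lists were chosen with earlier results of these data known. Named were all members, Col1a1, Zeb2, the 3 genes of each other pathway list with the smallest p, and the 5 genes most alike in pattern, apart from results that are not reported here. Ratios within the family were taken for 4 fixed pairs. Replicate numbers 1, 2 and 3 occur in both groups, but no label links same-numbered libraries and the deviations of same-numbered libraries correlated at 0.088, -0.14 and -0.087, so the numbers were not treated as pairs.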

Additional observations from a re-analysis of the deposited data

How the results depend on the processing

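No result on the members passed a threshold, so the alternatives bear on direction and counts. With DESeq2 size factors, upper-quartile scaling, mitochondrially encoded genes left out, no filter on low counts, robust dispersions, a prior count of 2, a replicate block or DESeq2, each member kept its direction, with 3 to 5 members under -0.2 and a median between -0.22 and -0.16. The number of genes past the adjusted threshold was 0 in each edgeR fit and 1 with DESeq2. With the replicate number as a block, 5 members were under -0.2 (Hspg2 at -0.25 in addition), the member median was -0.22 and 0 genes passed, so the block changed no call, and the log2 fold change of Col1a1 was -0.95. Leaving out 1 library at a time gave 0 genes past the threshold, 1 to 8 members under -0.2, 0 members over 0.2, medians from -0.41 to 0.031, and 0 to 5 members whose ratio to Col1a1 separated the genotypes. Across these fits the log2 fold change ran from -0.30 to 0.13 for Col4a1, -0.37 to 0.069 for Col4a2, -0.42 to 0.032 for Col18a1, -0.53 to 0.029 for Hspg2, -0.043 to 0.11 for Lama4 and -0.036 to 0.20 for Lamb1, and it stayed below 0 in Col15a1 (-0.56 to -0.015), Lama2 (-0.40 to -0.030), Lamc1 (-0.47 to -0.084), Nid1 (-0.60 to -0.011) and Col1a1 (-1.86 to -0.091), with the value nearest 0 without Zeb2 cKO replicate 1 for Col15a1 and without Zeb2 fl/fl replicate 2 for the others. The log2 ratio to Col1a1 ran from -0.098 to 1.44 for Col4a1, -0.16 to 1.40 for Col4a2, -0.056 to 1.11 for Col15a1, -0.012 to 1.20 for Col18a1 and -0.19 to 1.26 for Hspg2, in each case with the lowest value without Zeb2 fl/fl replicate 2. With Col3a1 in place of Col1a1, 0 members separated. The causes were not tested.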

Other observations

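Col5a3, chosen after its values were seen, was the fibrillar collagen that was not raised with Col1a1 in Zeb2 fl/fl replicate 2. It measured 35.2, 22.4 and 28.7 CPM across the Zeb2 fl/fl replicates, against 17.7, 27.9 and 32.5 CPM across the Zeb2 cKO replicates, which within Zeb2 fl/fl is the order of Col4a1 and Col4a2 and within Zeb2 cKO the order of all members and fibrillar collagens. Its log2 fold change was -0.15, and -0.29 without Zeb2 fl/fl replicate 2.

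The genes most like the members, by Pearson's r over the 6 libraries between their log2 CPM and the mean log2 CPM of the 10 members, were Bace1 (r = 0.994), Ccnd2 (0.992), ENSMUSG00000044794 (0.990), Arhgef1 (0.989) and Gnb4 (0.986). Bace1, a membrane protease, measured 37.6, 38.1 and 37.8 CPM across the Zeb2 fl/fl replicates, against 31.5, 35.3 and 40.3 CPM across the Zeb2 cKO replicates. These r values are a description over 6 libraries and the highest among all tested genes outside the list.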
